A study of Mus musculus with 7 samples.

Results

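The genes described here are 10 components of the mitotic spindle checkpoint and of the chromosomal passenger complex, with the related Aurora A kinase: Bub1, Bub1b, Bub3, Mad2l1, Ttk, Aurka, Aurkb, Birc5, Cdca8 and Incenp. They were chosen by name from the 31829 distinct gene names of the array, and every probe that the annotation gives to one of these symbols was taken, which made 16 of the 39429 non-control probes. All 10 symbols are listed in the reference table of mouse genes. The question was how their mRNA differed between muscle cells that had received exosomes from palmitate-treated cells and cells that had received exosomes from control cells.

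Exosomes are small vesicles that cells release and other cells can take up. C2C12, a mouse muscle line whose myoblasts fuse into myotubes, served as donor and as recipient. EXO-Post Palm denotes exosomes of donors exposed to palmitate (0.5 mmol/l), and EXO-Post BSA those of donors given only the carrier albumin. In both groups they were collected 9 h after the treatment had been removed, and the recipient cells were incubated with them for 24 h. Total RNA of recipients was hybridised to single-colour Agilent arrays, 4 for EXO-Post BSA and 3 for EXO-Post Palm, which the labels call biological replicates. No array of cells without exosomes was analysed here, so the values compare 2 kinds of exosome on 1 line. The labels call the recipients myoblasts, whereas the study calls them myotubes, and the myotube marker Myog was well above background on all 7 arrays (log2 signal 5.58 ± 0.28, SD, n = 4, with EXO-Post BSA). The cell line entry counts upwards from C2C12 over the labels and was read as C2C12 throughout.

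At mitosis, a kinetochore that no microtubule holds sends an inhibitory signal. The kinases Ttk and Bub1 and the adaptor Bub3 build it, and Mad2l1 and Bub1b, the latter with Bub3, bind the activator Cdc20 so that the anaphase promoting complex does not yet mark cyclin B and securin for destruction. The chromosomal passenger complex, made of the kinase Aurkb, the scaffold Incenp and the targeting subunits Birc5 and Cdca8, corrects faulty attachments, while Aurka acts at the spindle poles. Most of these genes are transcribed late in the cell cycle, and myotubes have left the cycle. Differentiated C2C12 cultures can also hold mononucleated cells that have not fused.

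The promoters are shown first because many genes of late cell cycle phases share letters near their start sites. The table of RefSeq promoters (GRCm38, 250 bases before and 50 after the start site) held 8 of the 10 genes in 9 promoters, with Aurkb and Incenp not among them. The pair of Bub3 promoters start 124 bases apart and overlap. The stretches below run from 120 bases before to 30 after the start, 5′ to 3′ on the gene's strand. Capitals mark CCAAT, the box bound by NF-Y, and TTTGAA or TTCGAA, 2 forms of the cell cycle genes homology region, or TTTNNCGC, an E2F-like sequence, each also as its reverse complement. Bub1, Bub1b, Aurka, Cdca8 and Ttk hold at least 1 of these, Bub3 is the gene whose signal hardly moved, and Birc5 held no match.
Bub1 promoter, chr2:127831830-127831979, minus strand: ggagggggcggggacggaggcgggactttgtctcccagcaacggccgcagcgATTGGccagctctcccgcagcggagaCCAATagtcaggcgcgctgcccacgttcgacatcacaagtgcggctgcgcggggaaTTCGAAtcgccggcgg
Bub1b promoter, chr2:118598091-118598240, plus strand: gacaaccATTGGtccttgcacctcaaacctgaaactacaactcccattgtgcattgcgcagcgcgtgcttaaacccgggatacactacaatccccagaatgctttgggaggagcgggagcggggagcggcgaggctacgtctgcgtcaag
Aurka promoter, chr2:172370541-172370690, minus strand: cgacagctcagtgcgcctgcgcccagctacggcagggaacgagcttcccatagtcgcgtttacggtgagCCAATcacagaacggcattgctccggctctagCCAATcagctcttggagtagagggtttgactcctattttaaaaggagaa
Cdca8 promoter, chr4:124936888-124937037, minus strand: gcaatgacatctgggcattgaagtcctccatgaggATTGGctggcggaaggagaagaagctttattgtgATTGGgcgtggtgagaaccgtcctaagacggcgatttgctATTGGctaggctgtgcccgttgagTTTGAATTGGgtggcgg
Ttk promoter, chr9:83834569-83834718, plus strand: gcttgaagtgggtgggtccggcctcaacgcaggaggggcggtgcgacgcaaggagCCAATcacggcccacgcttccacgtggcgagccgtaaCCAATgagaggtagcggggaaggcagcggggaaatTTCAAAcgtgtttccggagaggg
Bub3 promoter, chr7:131560250-131560399, plus strand: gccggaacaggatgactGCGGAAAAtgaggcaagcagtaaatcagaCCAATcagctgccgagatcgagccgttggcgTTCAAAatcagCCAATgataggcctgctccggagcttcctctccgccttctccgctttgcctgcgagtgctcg
Birc5 promoter, chr11:117849117-117849266, plus strand: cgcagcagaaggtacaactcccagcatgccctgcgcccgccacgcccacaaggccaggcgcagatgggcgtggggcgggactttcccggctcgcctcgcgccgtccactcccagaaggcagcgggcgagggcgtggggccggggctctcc

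CCAAT stood in 7 of the 9 promoters, against 37.4% of all 32851 promoters of the table. TTTGAA was found in 6 of them, against 17.9%, and TTCGAA in 2, against 1.56%. TTTNNCGC occurred in 2, both of Bub3, against 5.17%. The matches of the 2 overlapping Bub3 promoters were the same bases, so each of them was counted in both promoters. CCAAT together with TTTGAA or TTCGAA was present in 7 promoters of 6 genes, against 7.53% of all promoters. In Cdca8 one TTTGAA shares letters with a reverse CCAAT. In Ttk the letters TTTGAA began 8 bases after the start site, in Cdca8 at 14, in Aurka at 33 and in Bub1b at 41. Those of Aurka and Bub1b lie beyond the stretches shown. TTCGAA began at 15 in Bub1 and at -188 in Bub1b, the latter also beyond the stretch shown. All 3 motifs other than TTCGAA were also present at Bub3. Neither Mad2l1 nor Birc5 held any of the 4 in the window searched, which speaks only of these letters in that window.

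Signals are given as log2 intensity minus the 75th percentile of the same array, so that 0 is that percentile and a difference of 1 is a factor of 2. They compare arrays for 1 probe, and not probes with each other. A probe passed when its limma p, adjusted over all 21589 tested probes by Benjamini and Hochberg, was below 0.05. This was so for 115 probes (0.533%), 100 of them higher (0.463%) and 15 lower in the EXO-Post Palm group. The share of probes well above background ranged from 48.5 to 70.3%, and the shares of the 2 groups overlapped. Both groups were present on 2 of the 4 slides, slide 1 with control replicates 1 and 2 beside EXO-Post Palm 1, and slide 3 with control replicate 4 beside EXO-Post Palm 3. By the protocol name in its file header, control replicate 3 alone had been read with another version of the image analysis software.

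Of the 16 probes, 15 were bright enough to be tested and 10 were well above background on all 7 arrays. All 15 had a log2 fold change above 0, as had 47.3% of all tested probes. Probes of 5 genes rose: Bub1, Bub1b, Mad2l1, Aurka and Birc5, each through 1 probe. The Mad2l1 probe that rose, another of Mad2l1 and that of Ttk reached the test only through the EXO-Post Palm arrays, being well above background on 2 or fewer of the 4 control arrays, so the counts over tested probes are a description. None fell. With single arrays left out, the number of member probes that rose was 0 when control replicate 1 or EXO-Post Palm 1 was omitted, 1 when EXO-Post Palm 3 was, 2 for each of the other control arrays and 7 when EXO-Post Palm 2 was. The unadjusted limma p was below 0.05 for 14 of the 15, all higher, against 4.85% of all tested probes that were higher at that level. Among the 14 tested probes with a value on every array, 11 had all EXO-Post Palm values above all EXO-Post BSA values, against 5.44% of the 21137 such probes on the array. Taking 1 probe per gene, the median log2 fold change of the 9 tested genes was 1.95, and that of all tested probes was -0.02. In whole cultures, more cells that express a gene and more mRNA per cell cannot be told apart.

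**Figure D1:**
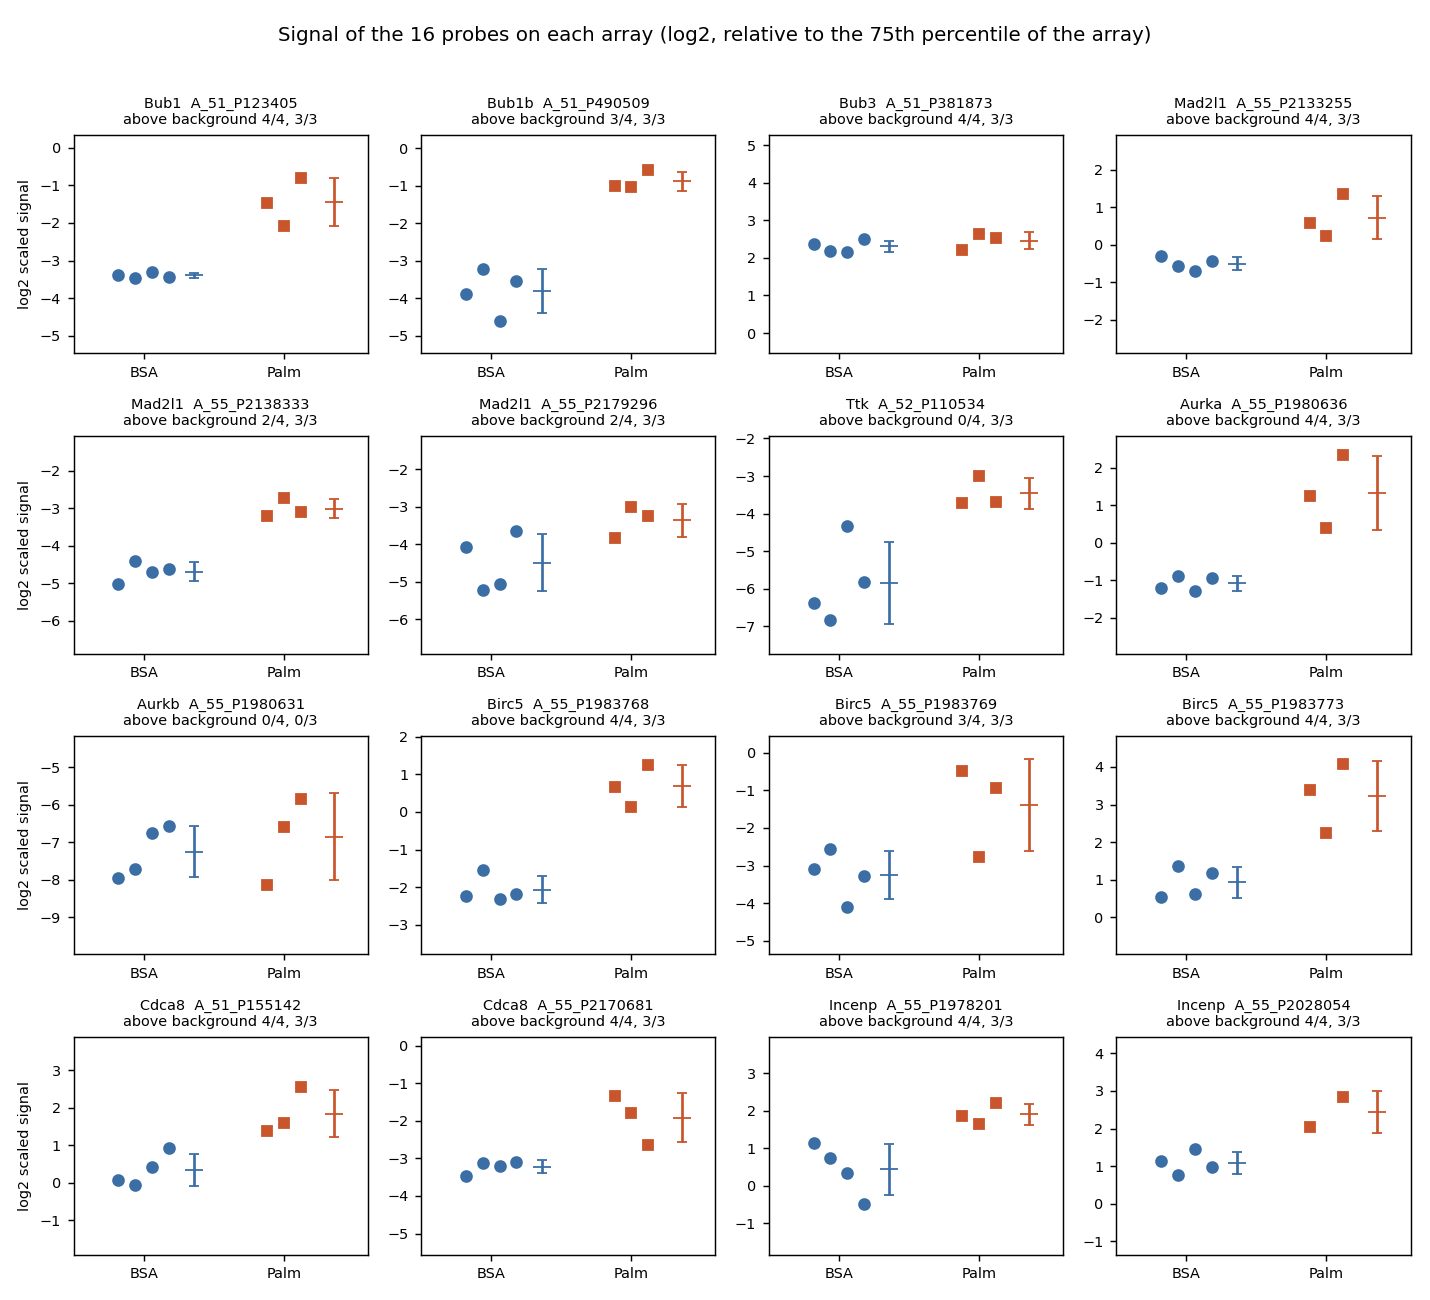
Each panel plots 1 of the 16 probes, with the log2 signal relative to the 75th percentile of the array on the y axis, circles for the 4 EXO-Post BSA arrays and squares for the 3 EXO-Post Palm arrays in order of replicate number. Bars show the mean ± SD, panel titles give how many arrays of each group were well above background, all y axes span the same range, and the second Incenp probe lacks its value on EXO-Post Palm replicate 2. Squares lie above circles in most panels, while Bub3, Aurkb, the Mad2l1 probe A_55_P2179296 and the Birc5 probe A_55_P1983769 overlap.

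The checkpoint kinase Bub1 rose 3.86-fold. Its probe A_51_P123405 (mm9 chr2:127626988-127627047, minus strand) is printed 10 times, so each value is a mean of up to 10 spots, 1 spot on EXO-Post BSA replicate 4 having been left out as an outlier. It read -3.37, -3.47, -3.31 and -3.43 with EXO-Post BSA and -1.46, -2.07 and -0.80 with EXO-Post Palm. The SD among the control arrays was 0.07 (n = 4), and the lowest EXO-Post Palm array stood 1.24 above the highest of them. The log2 fold change was 1.95 ± 0.29 (SE, limma adjusted p = 0.0339). It was 1.96 within slide 1 and 2.62 within slide 3. Without EXO-Post Palm replicate 2 the limma adjusted p was 0.0127, and without any other single array it lay between 0.0733 and 0.129, with log2 fold changes of 1.63 to 2.26 in all. With normexp, quantile normalisation and an offset of 50 on median signals the change was 1.22 (limma adjusted p = 0.0612), and with low values raised to a floor in place of normexp 1.13 (0.0699).

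Bub1b, which encodes the Cdc20-binding checkpoint protein BubR1, showed a higher fold change than any of the other 14 tested probes on the main scale, though not with normexp (2.15 against 2.58 for a Birc5 probe), the floor (2.02 against 2.50), the authors' processed values (2.68 against 2.83) or slide as a block (2.71 against 2.93). Probe A_51_P490509 (chr2:118466830-118466889, plus strand) read -3.88, -3.22, -4.60 and -3.53 with EXO-Post BSA and -1.02, -1.03 and -0.59 with EXO-Post Palm. On 1 control array it was not well above background. The 3 EXO-Post Palm values were close together and 2.19 or more above every control value. The log2 fold change was 2.93 ± 0.33 (SE, limma adjusted p = 0.0108), a 7.60-fold rise with a 95% interval of 4.51 to 12.8. The 2 slides gave 2.53 and 2.94. The limma adjusted p was above 0.05 without EXO-Post BSA replicate 1 (0.0625), EXO-Post Palm replicate 1 (0.0621) or EXO-Post Palm replicate 3 (0.0579), with log2 fold changes between 2.66 and 3.12 over all arrays left out.

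Bub3, the adaptor that both proteins use to reach the kinetochore, was the exception among the tested genes. Probe A_51_P381873, whose match spans an intron (chr7:138712221-138714437, plus strand), read 2.36, 2.19, 2.16 and 2.50 with EXO-Post BSA and 2.21, 2.64 and 2.52 with EXO-Post Palm. The groups overlapped. The difference was 0.16 ± 0.21 (SE, limma adjusted p = 0.839) and its 95% interval ran from -0.31 to 0.62, so a rise of the size of Bub1 lay outside it. Its sign turned to -0.03 with slide as a block.

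Mad2l1, the Mad2 protein that binds and inhibits Cdc20, is covered by 3 probes on chromosome 6 that do not overlap. One of them, A_55_P2138333 (chr6:66490067-66490126, plus strand), rose. It read -5.02, -4.40, -4.71 and -4.63 with EXO-Post BSA and -3.20, -2.73 and -3.10 with EXO-Post Palm, with no overlap. The log2 fold change was 1.68 ± 0.23 (SE, limma adjusted p = 0.0216). This probe was dim, well above background on 2 of 4 control arrays, so that it was tested only through the group in which it was high, and its call was the least stable of the 5. Its log2 fold change was 0.78 with normexp (limma adjusted p = 0.187), 0.70 with the floor (0.206), 1.21 with the authors' processed values (0.0875) and 1.52 with slide as a block (0.110). Without EXO-Post Palm replicate 2 the limma adjusted p was 0.0374, and without any other single array 0.0503 to 0.0864.

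The brightest Mad2l1 probe, A_55_P2133255 (chr6:66490836-66490895), was well above background everywhere. It read -0.30, -0.57, -0.69 and -0.44 against 0.57, 0.24 and 1.35. The groups did not overlap, but the difference of 1.22 ± 0.28 (SE) did not pass (limma adjusted p = 0.152). The third probe, A_55_P2179296 (chr6:66490355-66490414), read -4.06, -5.21, -5.06 and -3.64 against -3.84, -3.00 and -3.26. The groups overlapped there, with a difference of 1.13 ± 0.42 (SE, limma adjusted p = 0.419). The changes of the 3 probes differed from each other by 0.55 or less, and no pair had an exact 2-sided permutation p below 0.05 (0.343 to 0.800).

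Ttk encodes Mps1, the kinase at the head of the checkpoint. Probe A_52_P110534, across an intron (chr9:83758726-83761669, plus strand), was well above background on all 3 EXO-Post Palm arrays but on no control array. It read -6.39, -6.83, -4.33 and -5.82 with EXO-Post BSA and -3.71, -2.99 and -3.69 with EXO-Post Palm. The control values were therefore at background. In their place the lowest signal well above background of each array was set where it was higher. The level with EXO-Post Palm then came out 3.07-fold higher on this scale. The value is no firm minimum. On EXO-Post BSA replicate 3 the probe read -4.33, above that lowest signal (-4.53), and was still not well above background. The probe entered the test through the EXO-Post Palm arrays alone, and its fitted difference did not pass (2.38, limma adjusted p = 0.142). The 3.07-fold value also depends on the processing. The fitted difference was 0.79 with normexp (limma adjusted p = 0.153), 0.69 with the floor (0.177) and 1.36 with the authors' processed values (0.0841), all of them smaller than 2.38. The limma adjusted p was below 0.05 without EXO-Post BSA replicate 3 (0.0462) and with slide as a block (0.0327), in both cases against control values at background.

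**Figure D2:**
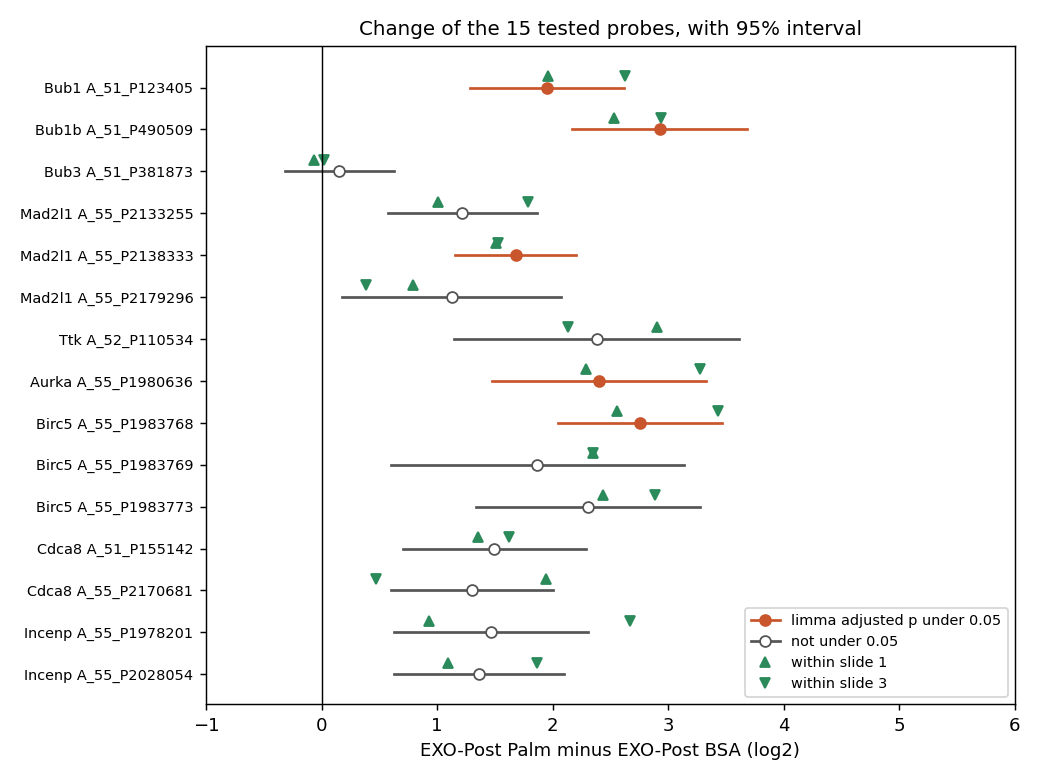
Points and lines give the log2 fold change of each of the 15 tested probes, EXO-Post Palm minus EXO-Post BSA, with its 95% interval from the limma fit, filled where the adjusted p was below 0.05. Triangles give the difference within slide 1 (2 arrays against 1) and slide 3 (1 against 1), and all lie above 0 except that of Bub3 within slide 1 (-0.06).

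Aurka, the Aurora A kinase of centrosomes and spindle poles, rose 5.29-fold. Probe A_55_P1980636 (chr2:172181726-172181785, minus strand) read -1.21, -0.90, -1.27 and -0.94 with EXO-Post BSA and 1.23, 0.40 and 2.34 with EXO-Post Palm. The control arrays were alike (SD 0.19, n = 4), and the EXO-Post Palm arrays spread more widely (SD 0.97, n = 3) but all above them. The log2 fold change was 2.40 ± 0.41 (SE, limma adjusted p = 0.0495), 2.29 within slide 1 and 3.27 within slide 3. It was the last of the 115 probes to pass. With spots marked by the image analysis software kept, the limma adjusted p was 0.0504. It was 0.0134 without EXO-Post Palm replicate 2 and between 0.0843 and 0.191 without any other single array, with log2 fold changes of 1.90 to 2.87.

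Aurkb, the kinase of the chromosomal passenger complex, could not be measured. Its single probe, A_55_P1980631 (chr11:68865105-68865164, plus strand), was well above background on none of the 7 arrays. It read -7.94, -7.72, -6.77 and -6.57 with EXO-Post BSA and -8.13, -6.58 and -5.84 with EXO-Post Palm. These values overlapped and were not tested. A probe that stays at background in both groups gives no information on the transcript.

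Birc5 encodes survivin, a targeting subunit of the complex, and has 3 probes on chromosome 11. The probe A_55_P1983768 (chr11:117711112-117711171, plus strand), listed for transcript NM_009689, read -2.23, -1.55, -2.32 and -2.18 with EXO-Post BSA and 0.67, 0.14 and 1.26 with EXO-Post Palm. All EXO-Post Palm values lay at least 1.69 above all control values. Its log2 fold change of 2.76 ± 0.31 (SE, limma adjusted p = 0.0108) was a 6.76-fold rise with a 95% interval of 4.13 to 11.1. The change was 2.56 within slide 1 and 3.43 within slide 3. Without EXO-Post BSA replicate 1 the limma adjusted p was 0.0625, without EXO-Post BSA replicate 3 0.0550 and without EXO-Post Palm replicate 1 0.0644, with log2 fold changes of 2.47 to 3.03 over all arrays left out.

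At the far end of the gene, probe A_55_P1983773 (chr11:117716978-117717037) read 0.55, 1.37, 0.61 and 1.18 with EXO-Post BSA and 3.39, 2.24 and 4.07 with EXO-Post Palm. The groups were apart, by 2.31 ± 0.43 (SE), yet this did not pass (limma adjusted p = 0.0677). It did pass with slide as a block (0.0339), with the authors' processed values (0.0414) and without EXO-Post Palm replicate 2 (0.0140). The annotation lists both A_55_P1983773 and the remaining probe, A_55_P1983769 (chr11:117714057-117714116), for transcript NM_001012273. Probe A_55_P1983769 read -3.08, -2.57, -4.11 and -3.29 against -0.47, -2.77 and -0.94. Here EXO-Post Palm replicate 2 fell among the controls, and the difference of 1.87 ± 0.56 (SE) did not pass (limma adjusted p = 0.289). Without that array it was 2.56 (limma adjusted p = 0.0376), and with slide as a block 2.35 (0.0327). The changes of the 3 probes differed by 0.44 to 0.89, with exact 2-sided permutation p from 0.0857 to 0.343, none below 0.05. Adjusted over the pairs of probes they were 0.500 to 0.560, and a single pair at the smallest possible p could not have passed that adjustment.

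The oligonucleotides of 3 probes that rose are given in lower case, since these 60 bases are what each array measured for Bub1b, Birc5 and Bub1.
Bub1b probe A_51_P490509: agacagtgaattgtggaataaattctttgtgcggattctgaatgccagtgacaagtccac
Birc5 probe A_55_P1983768: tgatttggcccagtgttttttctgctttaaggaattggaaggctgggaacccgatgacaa
Bub1 probe A_51_P123405: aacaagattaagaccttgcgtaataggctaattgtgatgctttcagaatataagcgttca

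Cdca8, or borealin, is the other targeting subunit, with 2 probes on chromosome 4. Probe A_51_P155142 (chr4:124595809-124595868, minus strand) read 0.08, -0.04, 0.42 and 0.92 with EXO-Post BSA and 1.37, 1.60 and 2.55 with EXO-Post Palm. Probe A_55_P2170681 (chr4:124599245-124599304) read -3.47, -3.11, -3.21 and -3.10 against -1.35, -1.79 and -2.63. In both the groups were apart, but the order of the EXO-Post Palm arrays was not shared, replicate 3 being the highest with one probe and the lowest with the other. The differences were 1.50 ± 0.35 (SE, limma adjusted p = 0.152) and 1.30 ± 0.31 (SE, 0.160). The first passed with normexp (1.55, limma adjusted p = 0.0378), with the floor (1.54, 0.0417) and with the authors' processed values (1.61, 0.0387). Under the same settings the second was smaller, at 0.57 (limma adjusted p = 0.442), 0.53 (0.448) and 0.72 (0.448). It was 1.95 within slide 1 and 0.47 within slide 3.

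Incenp is the scaffold on which the passenger proteins and the kinase assemble. Its 2 probes on chromosome 19 share 45 bases and are not independent. Probe A_55_P1978201 (chr19:9946878-9946937, minus strand) read 1.14, 0.73, 0.34 and -0.47 with EXO-Post BSA and 1.86, 1.64 and 2.20 with EXO-Post Palm. The groups were apart, and the control arrays spread more (SD 0.69, n = 4) than those of EXO-Post Palm (SD 0.28, n = 3). The difference was 1.46 ± 0.37 (SE, limma adjusted p = 0.194). The other, A_55_P2028054 (chr19:9946893-9946952), read 1.14, 0.77, 1.45 and 0.98 against 2.05 and 2.85, its spot on EXO-Post Palm replicate 2 having been marked as uneven and left out. Its difference, over 6 arrays, was 1.36 ± 0.32 (SE, limma adjusted p = 0.172).

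The members did not move equally on the EXO-Post Palm arrays. Relative to the EXO-Post BSA mean of each gene, the median of the 9 tested genes was 1.94 on replicate 1, 1.31 on replicate 2 and 2.20 on replicate 3. On the control arrays it lay between -0.14 and 0.14. Replicate 2 was the lowest EXO-Post Palm array for 8 of the 15 tested probes, and replicate 3 was the highest for 9. Some of these probes belong to the same gene, and no share over all tested probes was set beside these counts. The median of all tested probes on the same scale was between -0.03 and 0.06 on every array. The difference of the tested member probes ran from -0.06 (Bub3) to 2.91 within slide 1 and from 0.02 (Bub3) to 3.43 within slide 3. These within-slide values rest on 3 and 2 arrays and carry no test.

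To ask whether partners changed by the same amount, the difference of log2 signal between 2 genes was taken on each array, which removes the scaling of arrays. Of the 7 pairs planned, 5 could be formed and those with Aurkb could not. Bub1 minus Bub3 was -5.73, -5.67, -5.47 and -5.93 with EXO-Post BSA and -3.67, -4.71 and -3.33 with EXO-Post Palm. Bub1b minus Bub3 was -6.24, -5.42, -6.76 and -6.03 against -3.24, -3.67 and -3.11. The groups were apart for both pairs, by 1.80 and 2.77 (0.95 and 1.88 with normexp), and the exact 2-sided permutation p was 0.0286 each, the smallest that 35 ways to part the arrays allow. Adjusted over the 5 pairs it was 0.0714, so neither passed, and at least 3 pairs would have had to reach the smallest p for any to pass.

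Bub1 minus Bub1b was lower with EXO-Post Palm by 0.98 (-0.56 ± 0.43, SD, n = 3, against 0.41 ± 0.66, SD, n = 4), with an exact permutation p of 0.0857 (adjusted 0.143). Among the passenger proteins, Birc5 minus Incenp differed by 0.84 (exact permutation p = 0.229, adjusted 0.286), and by 0.40 to 1.67 with the other probes of the 2 genes, among them 1.29 (unadjusted exact permutation p = 0.0571) with the Birc5 probe that rose. Cdca8 minus Incenp differed by 0.03, less than the spread of either group (the SD with EXO-Post Palm was 0.42, n = 3), and its exact permutation p was 1.

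**Figure D3:**
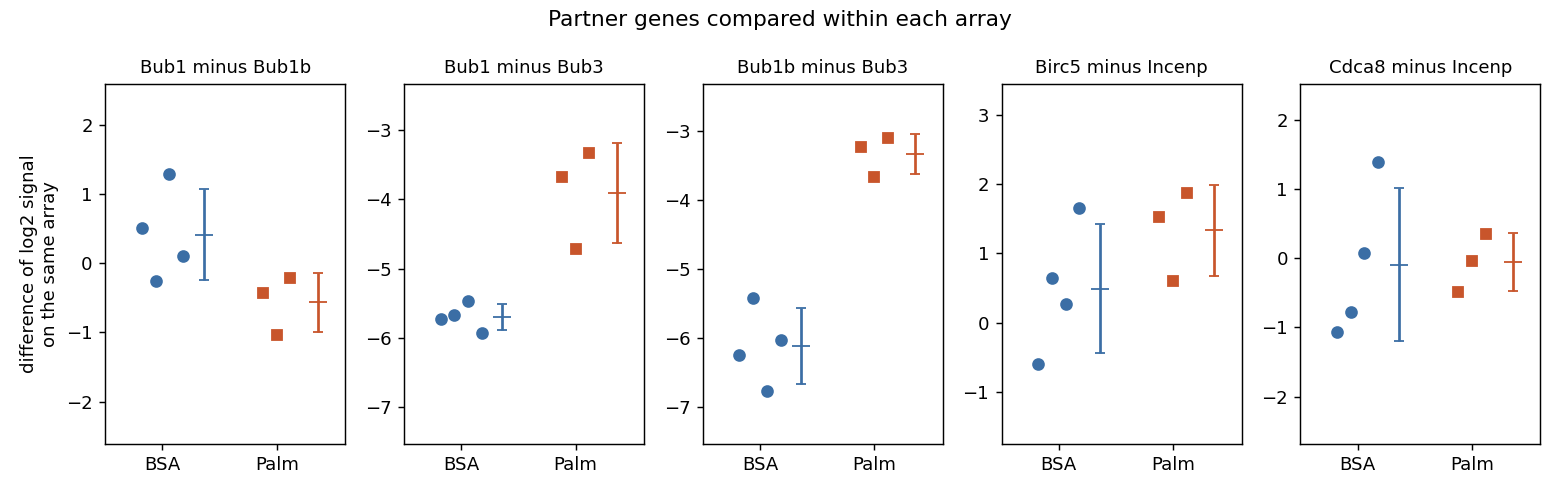
The y axis is the log2 signal of the first gene minus that of the second on the same array, for EXO-Post BSA (circles, 4 arrays) and EXO-Post Palm (squares, 3 arrays), with the mean ± SD beside them. The height of a panel depends on the 2 probes and only the step between groups is informative. Bub1 and Bub1b stepped up against Bub3 by 1.80 and 2.77, and Cdca8 against Incenp by 0.03.

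The genes around the members were read from 5 lists in the same limma fit, with 1 probe per gene. Of 62 tested genes 8 rose and none fell, against 0.463% and 0.0695% of all tested probes. Without EXO-Post BSA replicate 1 the number was 0, without EXO-Post Palm replicate 1 it was 1, without EXO-Post Palm replicate 2 it was 15 and without any other single array 2 to 5. Among 9 tested spindle checkpoint partners 1 rose, Cdc20, the target of the checkpoint and activator of the anaphase promoting complex (2.76 ± 0.31, SE, limma adjusted p = 0.0108), and the list median was 0.42. Of 11 partners of the Aurora kinases and the passenger complex, 4 rose, with a median of 1.80 over the list. They were Plk1, a mitotic kinase that Aurora kinases activate (2.19 ± 0.33, SE, limma adjusted p = 0.0349), Kif20a, the kinesin that moves the passenger complex to the central spindle (2.18 ± 0.29, SE, 0.0193), Tpx2, the activator of Aurka on microtubules (1.85 ± 0.30, SE, 0.0427), and Tacc3, an Aurka substrate on spindle microtubules (1.80 ± 0.27, SE, 0.0355).

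The next lists were the anaphase promoting complex and its substrates, whose difference was not tested. Of 15 tested genes of the complex 1 rose, Ube2c, its ubiquitin-conjugating enzyme (2.16 ± 0.36, SE, limma adjusted p = 0.0462), and the median was 0.03. All 8 tested substrates had a log2 fold change above 0 and 2 rose, the cyclins Ccnb2 (2.82 ± 0.31, SE, limma adjusted p = 0.0108) and Ccnb1 (2.76 ± 0.28, SE, 0.0108), with a list median of 1.97. Of 19 regulators of G2/M transcription, 5 had an unadjusted limma p below 0.05, against 10% of all tested probes. Of these 5, Foxm1, E2f7, Rbl1 and E2f1 were higher (0.61 to 1.60) and only Lin9 was lower (-0.61). None of the 19 passed, and their median was 0.11. The 3 with the highest change were Foxm1, a transcription factor of G2/M genes (1.60 ± 0.31, SE, limma adjusted p = 0.0802), the repressor E2f7 (1.01 ± 0.32, SE, 0.324) and the pocket protein Rbl1 (0.89 ± 0.32, SE, 0.397). The lowest was E2f4 (-1.15 ± 0.52, SE, 0.513), which pairs with pocket proteins in resting cells.

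**Figure D4:**
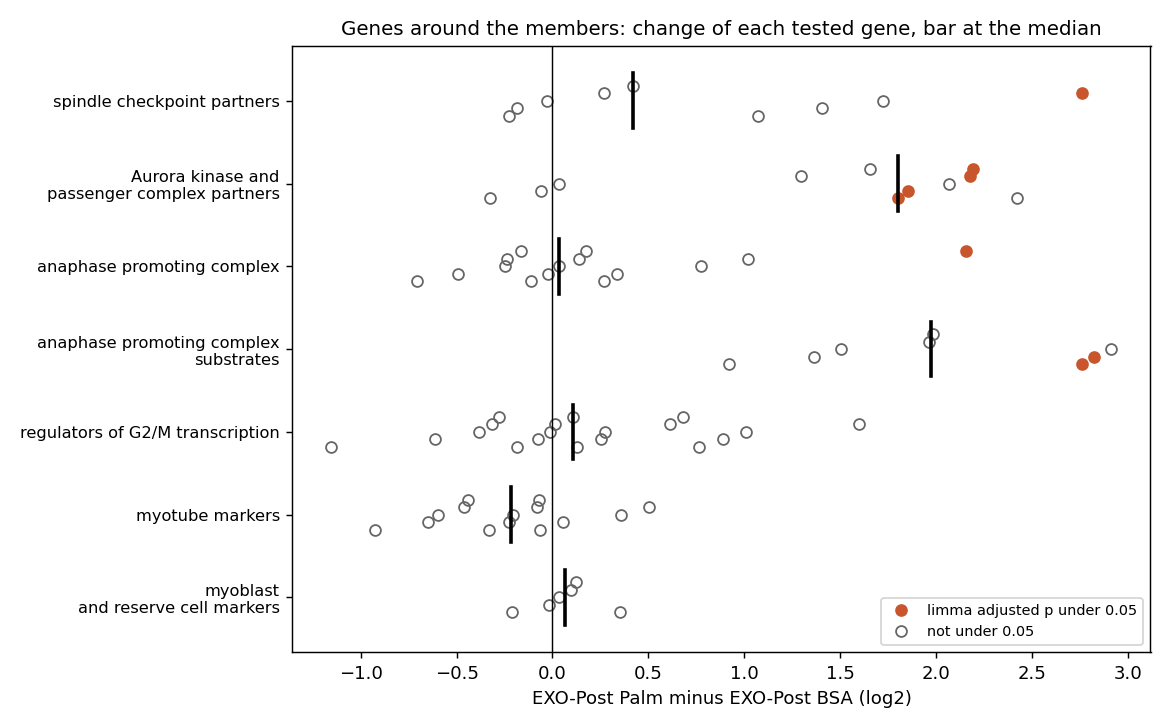
Each circle is 1 tested gene, with its log2 fold change (EXO-Post Palm minus EXO-Post BSA) on the x axis, filled where the limma adjusted p was below 0.05, and a bar marks the median of each list. Medians were 1.80 for partners of the Aurora kinases and the passenger complex and 1.97 for substrates of the anaphase promoting complex, against 0.03 for the complex itself and -0.22 for myotube markers, with vertical offsets only to separate points.

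Among markers of differentiation, all 14 of myotubes were tested. Of these, 3 had a log2 fold change above 0, against 47.3% of all tested probes. None of the 14 passed, and their median was -0.22. An unadjusted limma p below 0.05 was found for 4 of them, against 10% of all tested probes. Of these 4, Actc1, Myh8 and Mb (-0.60) were lower, whereas Des was higher (0.50). The farthest from 0 were the sarcomeric genes Actc1 (-0.93 ± 0.30, SE, limma adjusted p = 0.341) and Myh8 (-0.65 ± 0.20, SE, 0.304). The summed level of all 14 myotube markers, in units of the 75th percentile of the array, was 1002 to 1233 with EXO-Post BSA. With EXO-Post Palm it was 864.5 to 1037. Of 7 markers of myoblasts and reserve cells, 6 were tested and none passed (median 0.06, summed level 13.8 to 18.2 against 13.7 to 21.4). The 2 farthest from 0 were Id3 (0.35 ± 0.29, SE, limma adjusted p = 0.727) and Pax7 (-0.21 ± 0.31, SE, 0.852), and Myf5 was well above background on no array. Of the other cell types, 3 of 5 leukocyte markers, 2 of 3 endothelial markers and no adipocyte marker were bright enough to test, and none passed. The summed level of the leukocyte list was lower with EXO-Post Palm (4.86 to 5.65) than with EXO-Post BSA (7.14 to 17.5). Of its 3 tested genes only Itgam had a log2 fold change below 0 (-1.63 ± 0.34, SE, limma adjusted p = 0.111), Emr1 and Csf1r having 0.58 and 0.45, and the list median was 0.45. Ptprc, which defines leukocytes, was well above background on 2 arrays. Whether a shift between fused and unfused cells had a part in the rise of the members was not tested.

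Each of the 9 tested members, by 1 probe, was centred on its own mean and averaged into 1 profile over the 7 arrays. The genes outside the members with the closest profile were noted as a description. They were Asf1b, a histone chaperone of replicating chromatin (Pearson r = 0.999), Ccnb1 (0.999), Prl2c1 (0.995), the Shc-binding protein Shcbp1 (0.994) and Cenph, a constitutive kinetochore protein (0.993). Prl2c1 belongs to a family of close copies, so its probe may also read others. Members and these genes were read on the same 7 arrays. The arrays fall into 2 groups, which alone gives high values to any genes that differ between the groups. The log2 fold changes of these genes were 2.45, 2.76, 2.63, 2.06 and 2.14 in that order.

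**Figure D5:**
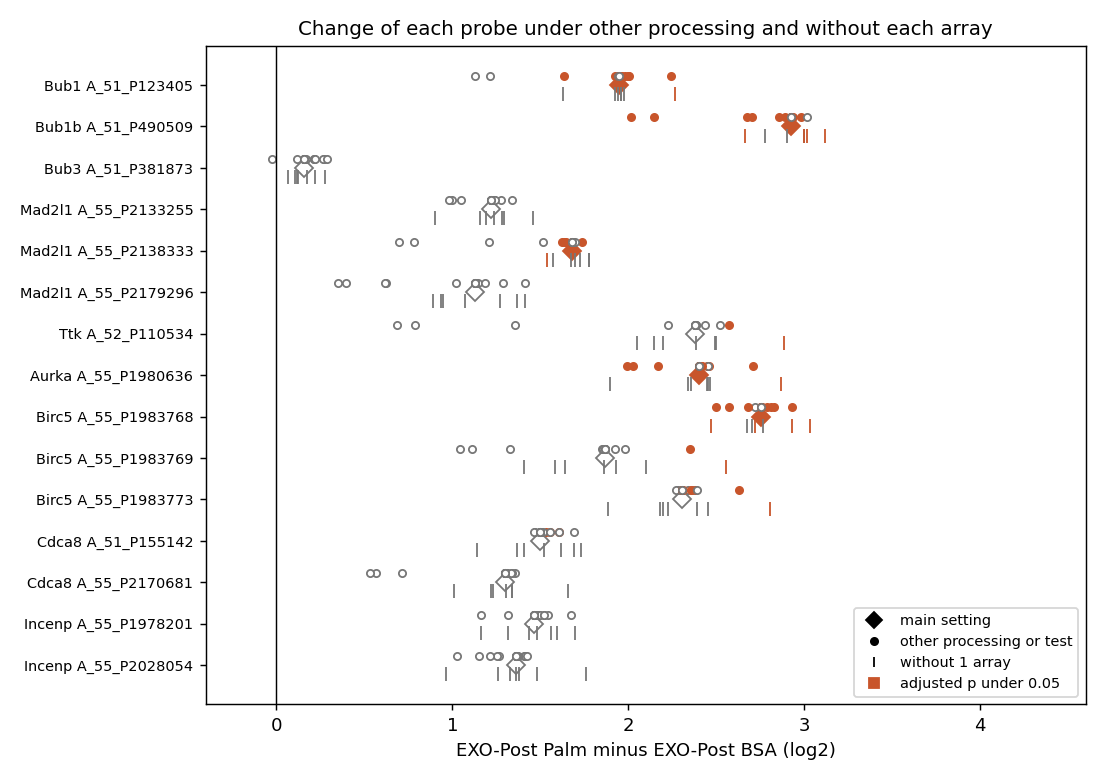
The x axis is the log2 fold change of each of the 15 tested probes, EXO-Post Palm minus EXO-Post BSA, for the main setting (diamond), other processing or tests (circles) and each array left out in turn (ticks), coloured and filled where the adjusted p was below 0.05. No probe other than Bub3 came to 0 or below, and Bub1b (2.02 to 3.02 over the other settings) and the first Birc5 probe (2.50 to 2.93) were coloured most often.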

How the data were processed

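RNA of C2C12 cells was measured on 7 single-colour Agilent mouse arrays, grouped by their labels. The authors deposited the scanner output, whose processed intensity has the background subtracted and no normalisation across arrays. They also deposited log2 values, for which the methods name the R packages Agi4x44PreProcess and limma without their settings, and which served as an alternative (rank correlation with the scanner medians 0.994 or more). The submitters' processing notes name the image analysis software Agilent Feature Extraction 9.1 and limma. From the protocol names in the file headers, control replicate 3 was taken as version 11.5 and all other arrays as 10.7.

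The log2 intensity minus each array's 75th percentile over 43020 non-control spots was used. Spots marked uneven or as outliers were left out, and the 399 probes printed 10 times were averaged. Probes well above background on 75% of the arrays of a group (21589) were fitted in limma 3.58.1 (R 4.3.3) on all 7 arrays without covariates, with a 2-sided Benjamini-Hochberg threshold of 0.05. Partner genes and probe pairs were compared by exact permutation. The number of arrays limits the precision. On simulated data (21137 probes), 76 of 100 probes changed by 2 (log2) and 5 of 100 changed by 1 were recovered. Alternatives covered background correction (normexp and a floor, offset 50, on median signals because mean signals were not in every file), normalisation, filter, slide, replicate number, weights, moderation, test and arrays. Named genes were all members, list genes that passed (if none, the 3 highest and the lowest), the 2 markers farthest from 0 and the 5 closest profiles. Members, lists and rules were chosen with earlier results of these data known. Probe positions are on mm9.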

Additional observations from a re-analysis of the deposited data

How the results depend on the processing

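With 115 probes, 5 of them members, and 8 list genes past the threshold, other processing left between 4 and 7 member probes past it, all higher, and a median of 1.48 to 2.25 over the member genes, with these exceptions. Without a probe filter and with the methods' t-test after adjustment no probe passed (0 of all, of members and of list genes), although limma without the filter gave 1900 probes and 14 members at an unadjusted p below 0.05. The unadjusted t-test gave 2108, 13 and 29, of which 995 of all were higher and 1113 lower. Slide as a random block gave 181 probes and 14 list genes, trended and robust moderation 173 and 15, and a filter on all 7 arrays 13 list genes. Normexp called 97 probes higher and 31 lower. The replicate block left 0 probes, members and list genes past the threshold in limma (1933 probes and 14 members at an unadjusted p below 0.05). Samples of the same number deviated together with correlations of 0.122, -0.150 and -0.148, no EXO-Post Palm array correlated best with its own number, and the numbers were not taken as a pairing.

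Leaving out each array in turn gave 0 to 228 probes, 0 to 7 member probes and 0 to 15 list genes, and the median of member genes stayed between 1.63 and 2.14. With the filter kept, without EXO-Post BSA replicate 1 there were 0 probes in limma (1583 at an unadjusted p below 0.05, and 63, with 3 members, after the filter was set again on the remaining arrays, an alternative chosen after seeing the data, which without EXO-Post Palm replicate 3 lowered 27 probes and 1 member to 4 and 0), without EXO-Post Palm replicate 1 there were 7 and without EXO-Post Palm replicate 2 there were 202, 158 higher and 44 lower. Without EXO-Post Palm replicate 1, 3 of 7 were higher. The cause was not tested. Cdca8 minus Incenp changed sign, from -0.29 to 0.53 over arrays left out, -0.16 with probes A_55_P2170681 and A_55_P1978201 and -0.13 with A_55_P2170681 and A_55_P2028054. Over arrays left out, Bub1 minus Bub1b stayed between -1.20 and -0.68, Bub1 minus Bub3 from 1.51 to 2.20, Bub1b minus Bub3 from 2.56 to 3.00 and Birc5 minus Incenp from 0.48 to 1.23, and normexp gave -0.93, 0.95, 1.88 and 0.79 in that order.

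With 7 arrays, changes near 1 (log2) were rarely called, so probes that missed the threshold are not shown to be without change. Dim probes (Ttk, Aurkb, 2 Mad2l1 probes) are limited by background.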
